A study of Mus musculus with 15 samples.

Results

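The genes described here are the extracellular metalloproteases and their tissue inhibitors, taken as every protein-coding gene whose symbol was Adam, Adamts, Mmp or Timp followed directly by a digit. The rule found 78 of the 53801 genes in the count table, namely 33 ADAM, 19 ADAMTS, 22 MMP and 4 TIMP genes. Their transcripts were measured by RNA-seq in cultures of adult neural stem cells (aNSCs), cells of the subventricular zone grown in suspension with EGF and bFGF, in 3 groups of 5 cultures. The first group was untreated Trrap Fl/+ aNSCs from mice 19, 24, 26, 35 and 36. The second was aNSCs of the same 5 Trrap Fl/+ mice treated with 4-hydroxytamoxifen (4-OHT), and the third was 4-OHT-treated Trrap Fl/Fl aNSCs from mice 27, 28, 29, 37 and 39. All mice were 2 months old, of strain C57BL6/J-129sv, and carried the Rosa26-CreERT2 transgene, which is expressed in most cell types and whose recombinase becomes active with 4-OHT. Treatment lasted 5 days by the labels, whereas the study's methods describe a shorter exposure to 4-OHT followed by days in fresh medium, so the time on the drug is not settled here. Trrap is the scaffold protein shared by several histone acetyltransferase complexes.

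Metalloproteases use a zinc ion to cut other proteins. ADAMs are anchored in the cell membrane and release the outer parts of growth factors, Notch receptors and adhesion proteins. ADAMTS enzymes are secreted, and cleave proteoglycans of the brain matrix such as brevican and versican, or the propeptides of fibrillar collagens. MMPs, secreted or membrane-bound, cut a broad range of matrix proteins, and TIMPs bind and block MMPs and some ADAM and ADAMTS enzymes. In the adult subventricular zone the matrix and the ligands released by these enzymes surround the stem cells.

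What deletion of Trrap changed was asked by setting 4-OHT-treated Fl/Fl against 4-OHT-treated Fl/+ cultures. The comparison of Fl/+ cultures with and without 4-OHT gave the effect of the treatment in the control genotype, in which 4-OHT, active Cre and recombination of 1 Trrap allele cannot be told apart. The third comparison set Fl/Fl 4-OHT cultures against untreated Fl/+ cultures. The Fl/Fl cultures came from other mice than the Fl/+ cultures, and the 3 comparisons share groups and are not independent. In the following, values in CPM (gene counts per 1000000 library counts) are listed by mouse number in the order given above, a fold change is fitted on the log2 scale by edgeR and followed by its standard error (SE), and a gene is called where the adjusted p of edgeR's quasi-likelihood test was under 0.05.

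The libraries held 25720034 to 32187097 counts each. Trrap was at 138 to 204 CPM in the Fl/+ 4-OHT cultures and at 82.8 to 142 CPM in the Fl/Fl 4-OHT cultures, a log2 fold change of -0.64 (SE 0.16, adjusted p = 0.0115). The library labelled Fl/Fl of mouse 29 had 142 CPM of Trrap, inside the Fl/+ range. The library of Fl/Fl mouse 39, labelled female, had 0.313 CPM of Xist and reads of Y-linked genes. Mouse 36, labelled male, had 5.89 CPM of Xist untreated and 74.7 CPM after 4-OHT. Counts of called genes are therefore also given without the cultures of mice 29, 36 and 39. Of 8 microglial markers, 6 had at most 3 counts in every library, as had 2 of 6 endothelial markers (Cdh5 and Cldn5) and 2 of 8 of fibroblasts and mural cells (Dcn and Lum). The endothelial list summed to 13.3 to 26 CPM untreated, 21.6 to 63.8 CPM in Fl/+ and 22.2 to 48.4 CPM in Fl/Fl 4-OHT cultures, with Flt1 higher after 4-OHT (1.11, SE 0.327, adjusted p = 0.0448). The fibroblast and mural list summed to at most 19.9 CPM, and 1 of its 4 tested genes, Rgs5, was called, in Fl/Fl against untreated cultures (2.09, SE 0.397, adjusted p = 0.00283). At means of 0.322 CPM untreated and 1.37 CPM in Fl/Fl cultures, Rgs5 passed the filter on low counts there only with Fl/Fl cultures.

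Promoter letters were taken from RefSeq (GRCm38.p6) as the 250 bases before a RefSeq start, which were found for 48 of the 78 genes. Each of these genes kept only the window of the start nearest to its annotated gene start. They were searched on both strands for GGGCGG, the GC box bound by Sp1 family factors, and for TGANTCA, the AP-1 site. The GC box was present in 41.7% of the 48 windows and in 32.7% of all 32851 windows. The AP-1 site was present in 20.8% of the 48 windows and in 6.75% of all windows. All windows could include several starts of the same gene, so the shares are not counted on the same unit. The windows below show the gene that differed most after Trrap deletion, the collagenase gene Mmp13 as an example of the unexpressed MMP cluster, the gene with the most GC boxes, and the inhibitor genes that rose and fell most after 4-OHT. Capitals mark the matched motifs, on either strand.
Adam19 (chr11:46055734-46055983, plus strand): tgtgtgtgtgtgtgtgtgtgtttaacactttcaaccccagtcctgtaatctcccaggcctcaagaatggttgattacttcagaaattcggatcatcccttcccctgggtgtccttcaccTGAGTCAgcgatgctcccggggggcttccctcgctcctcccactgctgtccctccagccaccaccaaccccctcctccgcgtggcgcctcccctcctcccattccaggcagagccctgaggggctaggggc
Mmp13 (chr9:7272264-7272513, plus strand): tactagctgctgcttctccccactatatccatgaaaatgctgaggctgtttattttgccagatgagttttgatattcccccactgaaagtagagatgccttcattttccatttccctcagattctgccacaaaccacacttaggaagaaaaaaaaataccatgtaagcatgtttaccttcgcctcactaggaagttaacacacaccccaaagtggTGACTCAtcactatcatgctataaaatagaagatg
Adamts14 (chr10:61273420-61273669, minus strand): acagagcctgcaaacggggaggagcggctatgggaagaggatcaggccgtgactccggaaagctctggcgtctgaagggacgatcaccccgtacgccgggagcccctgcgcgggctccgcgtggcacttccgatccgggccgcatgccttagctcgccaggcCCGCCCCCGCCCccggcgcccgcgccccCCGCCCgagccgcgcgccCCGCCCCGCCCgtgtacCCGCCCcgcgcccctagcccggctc
Timp1 (chrX:20869916-20870165, plus strand): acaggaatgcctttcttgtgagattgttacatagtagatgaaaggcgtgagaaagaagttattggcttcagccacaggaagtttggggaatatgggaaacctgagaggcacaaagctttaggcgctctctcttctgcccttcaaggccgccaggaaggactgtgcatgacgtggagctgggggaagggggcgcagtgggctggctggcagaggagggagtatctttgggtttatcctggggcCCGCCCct
Timp4 (chr6:115252206-115252455, minus strand): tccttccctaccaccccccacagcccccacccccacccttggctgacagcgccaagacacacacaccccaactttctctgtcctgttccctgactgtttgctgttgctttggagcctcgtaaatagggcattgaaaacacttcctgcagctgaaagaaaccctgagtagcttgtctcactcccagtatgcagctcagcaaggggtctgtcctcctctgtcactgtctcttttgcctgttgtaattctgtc
The Adam19 window held 1 AP-1 site, 131 bases before the start, and no GC box. The Mmp13 window held 1 AP-1 site, 35 bases before the start. Adamts14 had 6 GC boxes, the first of them 88 bases and the last 25 bases before the start, and Timp1 had 1, at 8 bases. Neither motif was in the Timp4 window. A match is a match of letters only.

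Of the 78 genes, 18 had no count in any library, 12 ADAM and 6 MMP genes. Another 16 had at least 1 count but at most 14 in a library and were tested in no comparison, which left 44 tested genes. The untested genes included the 9 MMP genes that lie side by side on chromosome 9 (GRCm38, chr9:7272514-7699585), among them the collagenase gene Mmp13, the stromelysin gene Mmp3 and the matrilysin gene Mmp7. None of the 9 had more than 4 counts in a library, and 6 had none. In the promoter letters, 6 of these 9 genes held an AP-1 site. Among the 48 genes with a window, 10 held one, of which Adam19 was tested and the other 9 had at most 3 counts in a library. A GC box stood in 18 of the 26 windows of tested genes and in 2 of the 22 windows of untested genes.

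The highest level per kilobase of exon in untreated cultures was that of Mmp15, which encodes a membrane-type MMP, at 118 CPM per kb ± 21 (SD, n = 5). Adam9 followed at 69 CPM per kb ± 7.51, and the ranges of these genes overlapped neither each other nor the next gene. Timp3 (48.3 ± 8.29), Timp4 (44.2 ± 8.43), Adam10 (32.3 ± 7.16), Mmp14 (31.9 ± 15), Adam15 (29.2 ± 5.76), Timp2 (24.2 ± 10.9), Adam17 (15.8 ± 2.89) and Adam12 (13.5 ± 5.66) came next, and each overlapped its neighbour. These 10 genes encode membrane-anchored proteases and 3 of the 4 inhibitors. The highest ADAMTS gene, Adamts7, was at 8.86 CPM per kb ± 1.69. Timp1 was at 3.54 CPM per kb ± 1.54, and the gelatinase gene Mmp2 at 0.366 CPM per kb ± 0.0983.

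**Figure D1:**
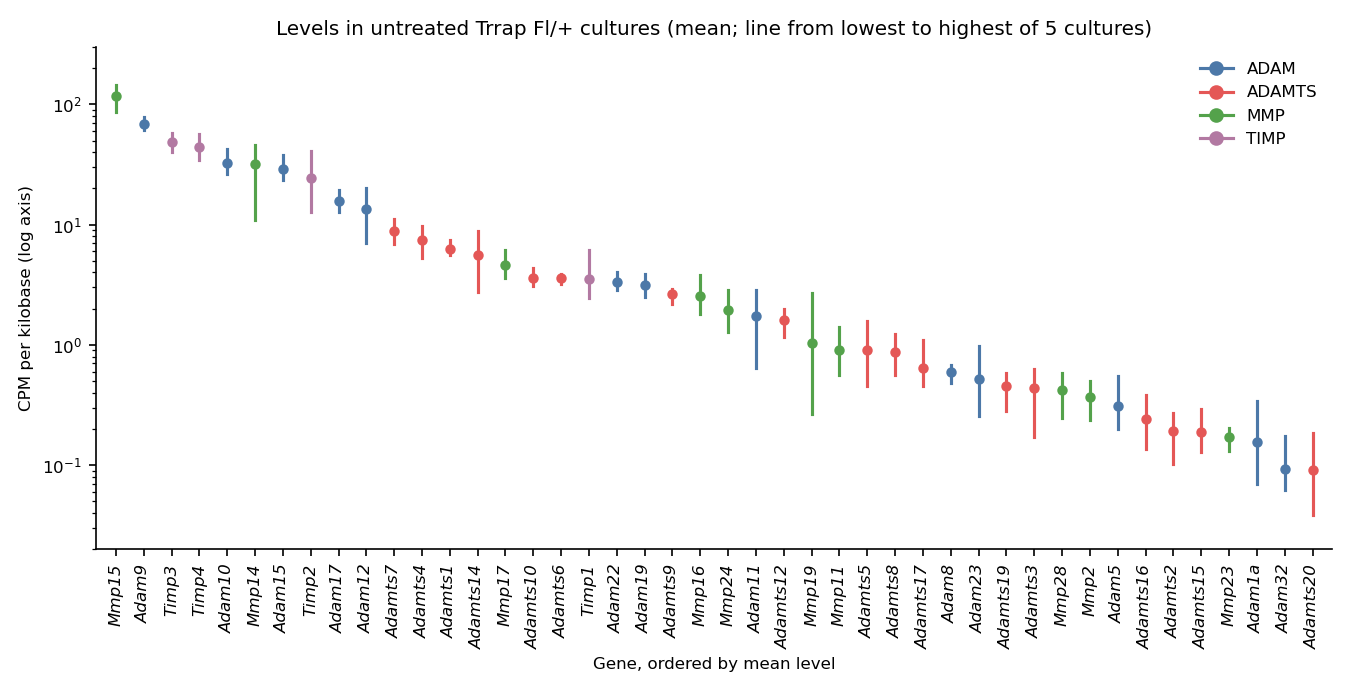
Level of the 44 tested genes in untreated Trrap Fl/+ cultures, in CPM per kilobase of exon on a log axis. Points are means of 5 cultures, lines run from the lowest to the highest culture, and colors mark the family. Mmp15 stands first at 118 CPM per kb, and the ADAMTS genes begin at 8.86 CPM per kb.

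After 4-OHT alone, 13 of 43 tested genes were called (30.2%, against 13.8% of all genes tested), 11 of them higher (7.34% of all genes) and 2 lower (6.45%). The higher genes, with their log2 fold changes, were Timp1 (2.82), Mmp2 (2.57), Adamts3 (2.44), Adamts14 (2.10), Adam19 (1.71), Adam11 (1.46), Adamts1 (1.24), Mmp28 (1.03), Adamts4 (1.02), Mmp17 (0.92) and Adamts9 (0.56). The lower genes were Timp4 (-1.52) and Adamts5 (-1.19). For 11 of the 43 genes the groups did not overlap, 10 higher and 1 lower, against 12.0% of all genes (6.52% higher and 5.47% lower). The median log2 fold change was 0.09 over the 43 genes and -0.01 over all genes. Same-mouse cultures deviated together, and with the mouse as a block 17 genes were called, against 25.7% of all genes, including the 13. Without the cultures of mice 29, 36 and 39, 12 were called, against 10.8% of all genes.

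After Trrap deletion, 9 of 44 tested genes were called (20.5%, against 31.7% of all genes tested), 2 higher (16.8% of all genes) and 7 lower (15.0%). Timp2 (0.89) and Adam15 (0.36) rose. Adam19 (-2.16), Adamts3 (-1.32), Adamts12 (-1.23), Adamts20 (-1.16), Mmp14 (-0.57), Mmp15 (-0.51) and Adamts9 (-0.43) fell. The median was -0.01 over the 44 genes and 0.02 over all genes. With no filter on low counts the test called 9 genes, against 14.1% of all genes, and DESeq2 called 11, against 19.5%, so nothing is read from the share. The groups did not overlap for 4 of them, 1 higher and 3 lower, against 22.6% of all genes (11.2% higher and 11.4% lower). Without the cultures of mice 29, 36 and 39, 1 of the 44 genes was called, Adam19, where 15.5% of all genes were. The log2 fold changes there were -2.16 for Adam19, -1.41 for Adamts3, -1.52 for Adamts12, -0.59 for Mmp14, -0.59 for Mmp15, -0.43 for Adamts9, 0.94 for Timp2 and 0.28 for Adam15, the same directions as with all libraries for these 8 of the 9 genes. Adamts20 was not called there, and its fold change there is not given here.

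Against untreated Fl/+ cultures, 15 of 44 tested genes were called in Fl/Fl 4-OHT cultures (34.1%, against 30.7% of all genes), 10 higher (15.7% of all genes) and 5 lower (15.1%). The groups did not overlap for 12, 8 higher and 4 lower, against 23.1% of all genes (11.5% higher and 11.6% lower), and the median was 0.15 against 0.00. Without the cultures of mice 29, 36 and 39, 13 were called, against 18.7% of all genes.

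**Figure D2:**
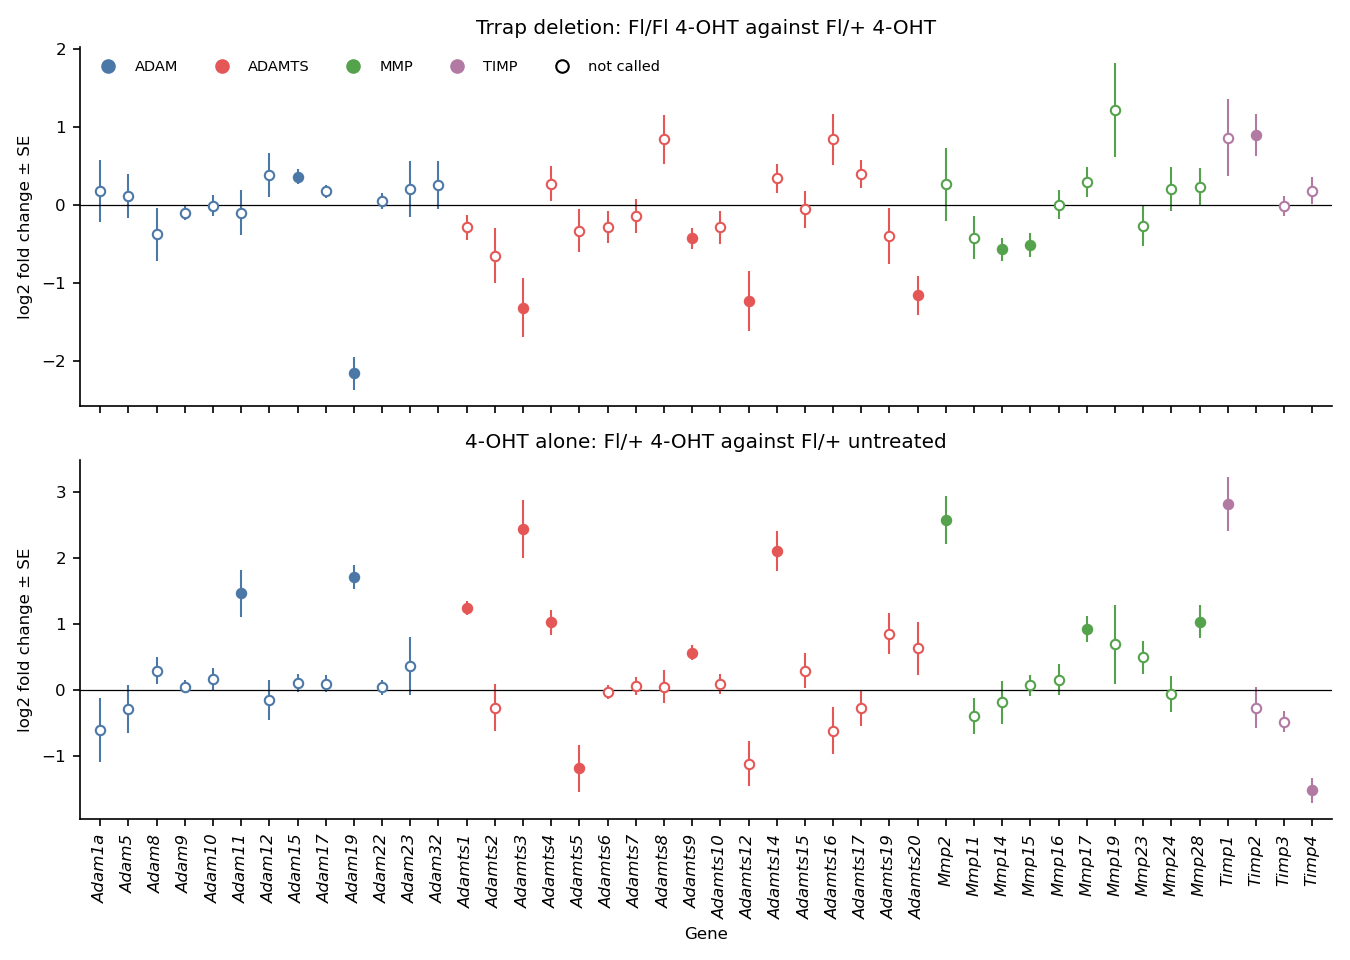
Log2 fold change with its SE for the tested genes after Trrap deletion (upper panel) and after 4-OHT alone (lower panel), by gene. Filled points passed the edgeR quasi-likelihood test at an adjusted p under 0.05, open points did not, and colors mark the family. Adam19 lies lowest after deletion at -2.16, and Timp1 highest after 4-OHT at 2.82.

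Of the inhibitors, Timp1 rose and Timp4 fell after 4-OHT. Timp1, a secreted inhibitor often induced by cytokines and growth factors, was at 5.5, 3.14, 2.38, 2.19 and 2.5 CPM in untreated cultures and at 22.8, 10.6, 10.9, 36.8 and 30.3 CPM in the same cultures with 4-OHT. The Fl/Fl 4-OHT cultures had 14.2, 27, 26.3, 93.8 and 39.7 CPM. Every treated culture was above every untreated one, and the treated groups overlapped. Timp1 rose by 2.82 after 4-OHT (SE 0.409, adjusted p = 0.0017) and was 3.69 above untreated cultures in Fl/Fl cultures (SE 0.501, adjusted p = 0.00049). The difference between the treated genotypes, 0.86, was not called (SE 0.495, adjusted p = 0.208). Without Fl/Fl mouse 37 these values of Fl/Fl cultures were 3.10 and 0.27 (adjusted p = 0.639). Timp1 lies on the X chromosome. With 4-OHT the Fl/+ cultures of the 2 mice labelled female, 24 and 26, were the lowest, whereas among the Fl/Fl cultures mouse 37, also labelled female, was the highest.

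Timp4, the inhibitor most restricted to brain, heart and a few other tissues, showed the reverse. It was at 274, 203, 251, 337 and 237 CPM untreated and at 60.5, 111, 117, 90.9 and 74.9 CPM in Fl/+ cultures with 4-OHT. Fl/Fl cultures had 110, 101, 108, 79.9 and 110 CPM. All 10 treated cultures were below all untreated ones. Timp4 fell by 1.52 after 4-OHT (SE 0.191, adjusted p = 0.000944), and the treated genotypes differed by 0.18 (SE 0.172, adjusted p = 0.453).

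Timp3, which stays bound to the matrix and also blocks Adam17, was at 330, 341, 469, 463 and 364 CPM untreated and at 268, 228, 381, 267 and 264 CPM in Fl/+ cultures with 4-OHT. It was lower with 4-OHT in 5 of 5 mice, but the groups overlapped at mouse 26. The log2 fold change of -0.48 (SE 0.154) was not called in the unpaired fit (adjusted p = 0.0604) and was called with the mouse as a block (adjusted p = 0.00744). It was also called by DESeq2 (0.0304), with sex as covariate (0.0475), without 4-OHT mouse 26 (0.0166) and with all 15 libraries in one fit (0.0247). In Fl/Fl cultures, at 291, 241, 259, 287 and 299 CPM, Timp3 was below every untreated culture, a log2 fold change of -0.50 (SE 0.12, adjusted p = 0.00919). Without the cultures of mice 29, 36 and 39 that adjusted p was 0.0518. After Trrap deletion the value was -0.02 (SE 0.128, adjusted p = 0.925).

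Timp2, which also takes part in the activation of pro-Mmp2 by Mmp14, was the only inhibitor called after Trrap deletion. It was at 87.6, 41.4, 100, 88.7 and 71.1 CPM in Fl/+ 4-OHT cultures and at 124, 97, 105, 235 and 152 CPM in Fl/Fl 4-OHT cultures. The groups overlapped between 97 and 100 CPM, and mouse 37 was the highest. Timp2 rose 1.85-fold (log2 0.89, SE 0.271, adjusted p = 0.0288). The call was lost without mouse 19 (adjusted p = 0.0503) or 36 (0.0643) of the Fl/+ group, and without mouse 37 (0.062) or 39 (0.0575) of the Fl/Fl group. It was also lost when all 15 libraries shared one fit (0.0519) and without mice 29, 36 and 39 (0.109). Untreated cultures ranged from 49.6 to 158 CPM, and neither treated group was called against them. Without untreated mouse 35, Fl/Fl cultures were called higher than untreated ones (0.87, adjusted p = 0.0484).

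Per kilobase, the 4 inhibitors together summed to 120 ± 24.5 CPM per kb untreated, 95 ± 16.4 in Fl/+ 4-OHT cultures and 133 ± 48.4 in Fl/Fl 4-OHT cultures (SD, n = 5), with overlapping ranges. The makeup of that sum differed more than its size. Timp4 was 37% ± 3.54 of it untreated, 16.8% ± 6.44 in Fl/+ and 14.4% ± 4.87 in Fl/Fl 4-OHT cultures. Timp1 was 3.13% ± 1.65 untreated, 25.8% ± 11 in Fl/+ and 30.9% ± 12.1 in Fl/Fl 4-OHT cultures. For both genes the shares of untreated and treated cultures did not overlap. These shares follow from the CPM values above and were not tested separately.

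**Figure D3:**
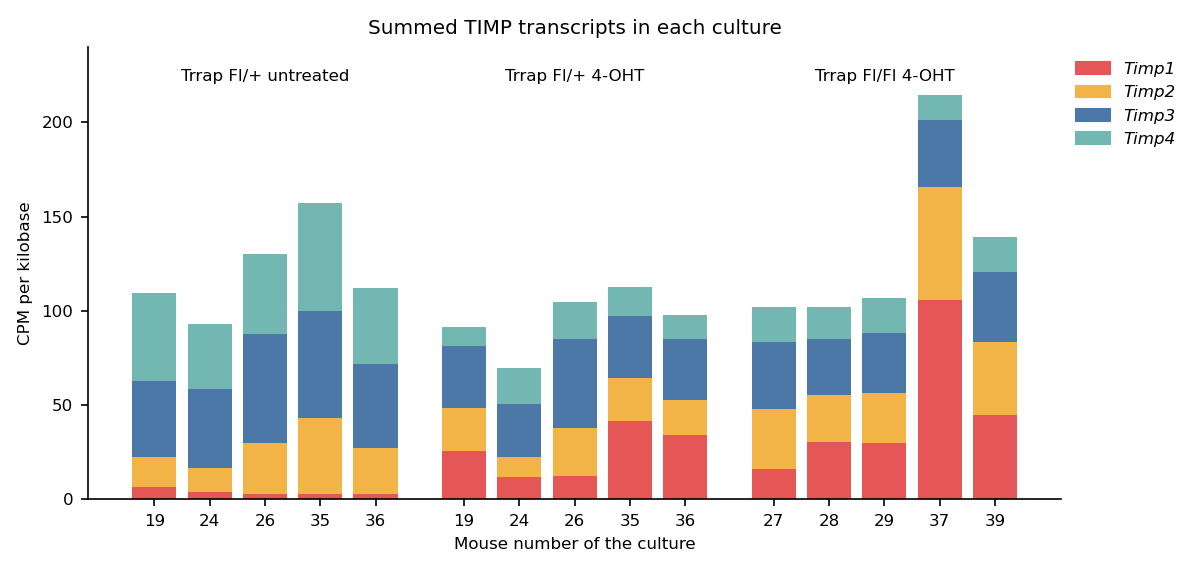
Summed level of the 4 TIMP genes in each culture, in CPM per kilobase of exon, with mouse numbers on the horizontal axis and the share of each gene as a color. Timp4 makes up 37% of the untreated sum and Timp1 3.13% on average, and the Fl/Fl culture of mouse 37 has the highest sum, 215 CPM per kb.

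Among the membrane-anchored ADAMs, Adam19 differed most after 4-OHT and after Trrap deletion. Adam19 encodes an active sheddase whose known substrates include neuregulins. It was at 26.1, 23.2, 17.7, 18 and 27.9 CPM in untreated Fl/+ cultures, at 98.5, 73.7, 79, 55.8 and 62.6 CPM in Fl/+ cultures with 4-OHT and at 15.6, 23.9, 17.4, 12.3 and 12.6 CPM in Fl/Fl cultures with 4-OHT. The Fl/+ 4-OHT cultures were above all cultures of both other groups, which overlapped each other. Adam19 rose 3.28-fold after 4-OHT (log2 1.71, SE 0.179, adjusted p = 0.000398) in 5 of 5 mice. Between the treated genotypes it was 4.47-fold lower in Fl/Fl cultures (log2 -2.16, SE 0.207, adjusted p = 8.9e-05). This call held under every alternative run, with log2 fold changes from -2.35 to -2.05. Fl/Fl 4-OHT against untreated cultures gave -0.45 (SE 0.204), which was not called (adjusted p = 0.113). In bulk RNA fewer cells that express a gene and less RNA per cell cannot be told apart.

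Adam15, another active sheddase, was at 169, 213, 204, 215 and 163 CPM in Fl/+ 4-OHT cultures and at 228, 238, 246, 263 and 252 CPM in Fl/Fl 4-OHT cultures. Every Fl/Fl culture was above every Fl/+ 4-OHT culture by a small margin, a log2 fold change of 0.36 (SE 0.093, adjusted p = 0.0126). Without the cultures of mice 29, 36 and 39 the adjusted p was 0.116. Adam11, which lacks protease activity and is known from synapses, was at 10.4, 16.3, 13.6, 5.5 and 3.61 CPM untreated and at 24.5, 35.5, 30.8, 23 and 22.1 CPM after 4-OHT in the same mice, a rise of 1.46 (SE 0.355, adjusted p = 0.0207). Fl/Fl cultures had 24.4, 20.5, 41.4, 28 and 11 CPM of Adam11.

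Adam10, Adam17, Adam9 and Adam12, the other ADAMs among the 10 highest genes, were not called in any comparison. Adam10, the main Notch sheddase, ranged from 129 to 209 CPM untreated, from 130 to 214 CPM in Fl/+ 4-OHT cultures and from 146 to 206 CPM in Fl/Fl 4-OHT cultures. Its log2 fold change was -0.01 after Trrap deletion (SE 0.138, adjusted p = 0.965) and 0.17 after 4-OHT (SE 0.167, adjusted p = 0.527). Adam17, which releases TNF and EGF receptor ligands, gave 0.17 after deletion (SE 0.0776, adjusted p = 0.108) and 0.09 after 4-OHT (SE 0.129, adjusted p = 0.701). In Fl/Fl against untreated cultures it gave 0.26 (SE 0.114, adjusted p = 0.112), and it was called there with library size alone (0.35, adjusted p = 0.0379) and without untreated mouse 36 (0.34, adjusted p = 0.0265). Adam9 gave -0.11 (SE 0.0886, adjusted p = 0.39) and 0.05 (SE 0.0979, adjusted p = 0.791). Adam12, a sheddase often found in fusing and regenerating tissues, gave 0.38 (SE 0.284, adjusted p = 0.337) and -0.16 (SE 0.304, adjusted p = 0.764). The summed ADAM level was 170 ± 13.8 CPM per kb untreated, 188 ± 9.31 in Fl/+ and 188 ± 10.3 in Fl/Fl 4-OHT cultures.

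**Figure D4:**
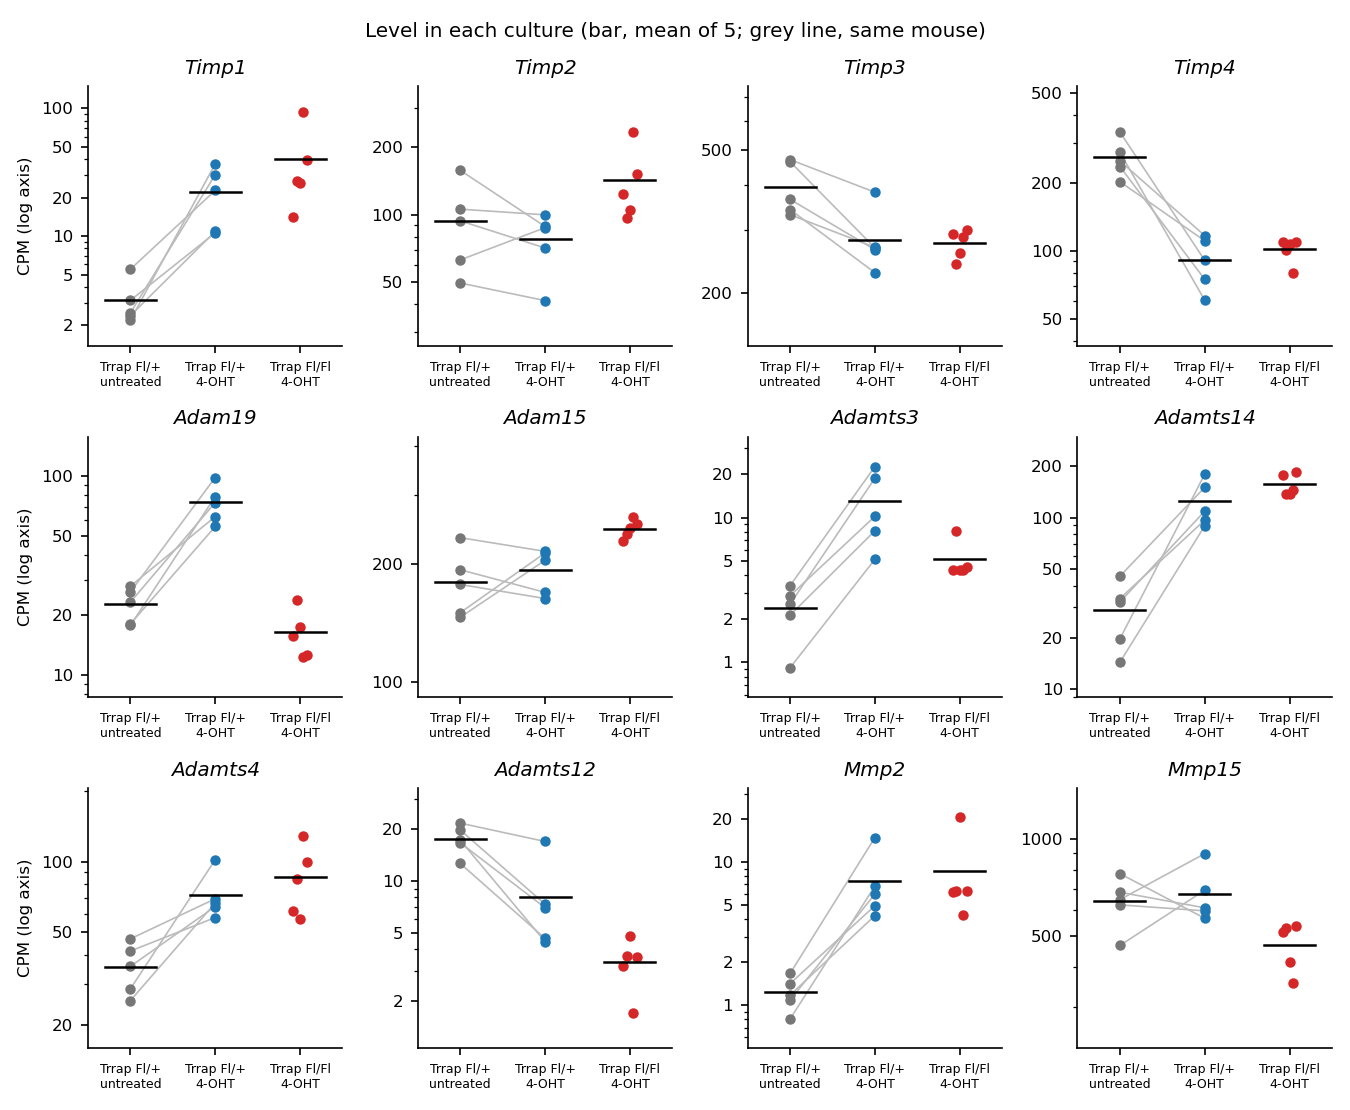
CPM of 12 genes in each culture on log axes. Points are cultures colored by group, black bars are means of 5, and grey lines join the Fl/+ cultures of 1 mouse. Adam19 is high only in the Fl/+ 4-OHT group among these 3 groups, at 55.8 to 98.5 CPM, and Timp1 and Timp4 separate untreated from treated cultures.

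The procollagen N-proteinases, Adamts2, Adamts3 and Adamts14, trim fibrillar procollagens, and Adamts3 also processes the lymphatic growth factor Vegfc and reelin. Adamts3 was at 2.53, 2.89, 3.39, 2.12 and 0.92 CPM untreated, at 18.7, 10.2, 22.5, 8.11 and 5.15 CPM in Fl/+ 4-OHT cultures and at 4.38, 8.06, 4.36, 4.33 and 4.58 CPM in Fl/Fl 4-OHT cultures. Untreated cultures did not overlap with treated ones of either genotype, and the treated genotypes overlapped at mice 28 and 36. Adamts3 changed by 2.44 after 4-OHT (log2, SE 0.44, adjusted p = 0.00505), -1.32 after deletion (SE 0.376, adjusted p = 0.021) and 1.13 in Fl/Fl against untreated cultures (SE 0.324, adjusted p = 0.022). The deletion call was lost without mouse 19 of the Fl/+ group (adjusted p = 0.0519), and the third without Fl/Fl mouse 28 (0.0594).

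Adamts14 was at 32.3, 19.7, 14.4, 45.6 and 33.8 CPM untreated, at 109, 179, 89.6, 150 and 96.7 CPM in Fl/+ 4-OHT cultures and at 177, 138, 138, 145 and 184 CPM in Fl/Fl 4-OHT cultures. It rose 4.29-fold after 4-OHT (log2 2.10, SE 0.308, adjusted p = 0.00187), without overlap, and the treated genotypes differed by 0.34 (SE 0.187, adjusted p = 0.194). Adamts2 was not called in any comparison.

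Of the 7 proteoglycanases, 4 were called after 4-OHT, 3 higher and 1 lower, where 7.34% of all genes were higher and 6.45% lower. Adamts1 was at 34.4, 29.5, 31.6, 31 and 39.3 CPM untreated and at 75.6, 72.3, 68.6, 90.5 and 83.9 CPM in Fl/+ 4-OHT cultures (log2 1.24, SE 0.106, adjusted p = 0.000172). Adamts4, a brevican-cleaving enzyme expressed by oligodendrocytes, was at 46.8, 41.5, 35.7, 28.6 and 25.5 CPM untreated and at 69.4, 57.7, 64.3, 102 and 66.6 CPM with 4-OHT (log2 1.02, SE 0.193, adjusted p = 0.00639). Both rose in 5 of 5 mice without overlap, and neither differed between the treated genotypes beyond the test (-0.29, adjusted p = 0.197, and 0.27, adjusted p = 0.377). Adamts5, the other main aggrecanase, went the other way, from 8.54, 12, 17, 6.39 and 4.9 CPM to 4.43, 3.64, 7.03, 3.4 and 2.86 CPM. It fell by 1.19 on the log2 scale (SE 0.352, adjusted p = 0.0455), lower in 5 of 5 mice. With the mouse as a block its adjusted p was 0.00251, whereas the unpaired fit without untreated mouse 19, 24 or 26 or without treated mouse 19, 24, 35 or 36 gave adjusted p from 0.0712 to 0.104, and scaling by library size alone gave 0.0509. Adamts9 rose by 0.56 after 4-OHT (SE 0.114, adjusted p = 0.00964) and fell by 0.43 after deletion (SE 0.137, adjusted p = 0.0336). The deletion call was lost without Fl/+ mouse 19 (adjusted p = 0.0775) or 35 (0.0657) and without Fl/Fl mouse 27 (0.0623) or 29 (0.0686). Adamts20, a low gene known from pigment cell development, was at 0.869 to 1.61 CPM in Fl/+ and at 0.328 to 0.714 CPM in Fl/Fl 4-OHT cultures, without overlap (log2 -1.16, SE 0.254, adjusted p = 0.0059). Both are given here after their values were seen.

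Markers of oligodendrocytes, the cells in which Adamts4 is best known, moved in the same comparison. The 10 markers summed to 230 to 742 CPM untreated, 581 to 1180 CPM in Fl/+ 4-OHT cultures and 710 to 2930 CPM in Fl/Fl 4-OHT cultures, and none was at or under 3 counts throughout. After 4-OHT Mbp, Mag, Mobp and Sox10 were called higher, where 13.8% of all genes were called, as was Mog, which at an untreated mean of 0.0214 CPM passed the filter only through treated cultures. After deletion 1 of the 10 was called, against 31.7% of all genes. In Fl/Fl against untreated cultures 8 of the 10 were called higher, where 15.7% of all genes were. Among the 8, Mog and Opalin (means of 0.39 CPM untreated and 1.97 CPM in Fl/Fl cultures) passed the filter only with Fl/Fl cultures. The sum of 2930 CPM was that of Fl/Fl mouse 37, which also had the highest Timp1, Timp2 and Adamts4 (129 CPM) of its group, where the other 4 sums were 710 to 1010 CPM. Mouse 35 had the highest Adamts4 after 4-OHT, and its marker sum, 628 CPM, was second lowest of its group. The part of these cells in the changes was not tested.

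Markers of other neural cell types also differed between the groups. The shares of all genes called, 16.8% higher and 15.0% lower after deletion and 7.34% and 6.45% after 4-OHT, stand beside these counts too. Of 10 neuronal markers, 2 were lower after deletion, with Dcx, of immature neurons, at -2.51 (SE 0.408, adjusted p = 0.00123) and Tubb3 at -1.04 (SE 0.329, adjusted p = 0.0334), in the comparison in which Adam19 fell. Slc17a7 was called higher, from 0.236 to 0.516 CPM, but passed the filter only through Fl/Fl cultures. Against untreated cultures 6 neuronal markers were lower in Fl/Fl cultures, where 15.1% of all genes were, and Slc17a7 alone was higher. The neuronal sum was 873 to 1150 CPM untreated, 866 to 1030 CPM in Fl/+ and 616 to 832 CPM in Fl/Fl 4-OHT cultures. Of 10 neural stem cell markers, 3 were lower after deletion, Sox2 (-0.33), Fabp7 (-0.61) and Prom1 (-0.65), and none was higher. Their sums were 7310 to 10500, 7740 to 9890 and 5980 to 10200 CPM in the same order. After 4-OHT, 4 of 8 astrocyte markers were lower, S100b (-1.91), Aldoc (-0.74), Slc1a3 (-0.70) and Gja1 (-0.58), and Gfap was higher (3.25). The astrocyte sums were 6320 to 8420, 5970 to 7550 and 5590 to 9530 CPM. Of 6 markers of oligodendrocyte precursors, 2 were higher after 4-OHT, Pdgfra (1.49) and Cspg4 (0.80), and their sums were 3500 to 4890, 3190 to 4770 and 3240 to 4380 CPM. Of 6 ependymal markers, 1 was higher after 4-OHT, Rarres2 (1.34, adjusted p = 0.0154), and 1 lower, Dynlrb2 (-1.13, adjusted p = 0.0358), and against untreated cultures Foxj1 (1.09, adjusted p = 0.00227) and Rarres2 (1.90, adjusted p = 0.00102) were higher in Fl/Fl cultures. Ccdc153, called there too at 0.245 and 1.32 CPM, passed the filter only through Fl/Fl cultures. Their sums were 30.6 to 67.9, 44.9 to 101 and 82.4 to 108 CPM. Of these 5 lists only the ependymal Tmem212 was at or under 3 counts in every library, and the part of these cells in the changes of the metalloproteases was not tested.

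Adamts12, a secreted enzyme that can cleave the matrix protein Comp, had means of 17.5, 8.04 and 3.39 CPM in the 3 groups. It was at 17.2, 21.6, 12.6, 16.6 and 19.7 CPM untreated, at 4.43, 16.9, 4.62, 6.97 and 7.3 CPM in Fl/+ 4-OHT cultures and at 3.2, 3.67, 4.78, 1.7 and 3.61 CPM in Fl/Fl 4-OHT cultures. Fl/Fl and untreated cultures did not overlap (log2 -2.35, SE 0.254, adjusted p = 0.000144). After 4-OHT it was lower in 5 of 5 mice, at -1.12 (SE 0.342), with adjusted p = 0.0509 unpaired and 0.00388 with the mouse as a block. After deletion it fell by 1.23 (SE 0.388, adjusted p = 0.0326), with overlap. That call was lost without Fl/+ mouse 24 (log2 -0.77, adjusted p = 0.0622), whose 16.9 CPM stood apart, and without Fl/Fl mouse 27 (0.0645), 28 (0.0558), 37 (0.0557) or 39 (0.0546). It was also lost with sex as covariate (0.0504) and without mice 29, 36 and 39 (0.085).

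The summed ADAMTS level was 43.6 ± 2.59 CPM per kb untreated, 80.7 ± 10.7 in Fl/+ 4-OHT and 82.2 ± 11.1 in Fl/Fl 4-OHT cultures (SD, n = 5). The lowest treated culture was at 69.4 and the highest untreated one at 45.7 CPM per kb. Of the 17 tested ADAMTS genes, 6 were called after 4-OHT (5 higher, 1 lower, 35.3% against 13.8% of all genes). After deletion 4 were called, all lower, 23.5% against 31.7% of all genes called in either direction and 15.0% lower.

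Of the 10 tested MMPs, 2 fell after Trrap deletion (15.0% of all genes did) and none rose, namely the membrane-type Mmp15 and Mmp14, 2 of the 5 tested of that type. Mmp15 was at 597, 899, 692, 610 and 566 CPM in Fl/+ 4-OHT cultures and at 512, 527, 413, 357 and 535 CPM in Fl/Fl 4-OHT cultures, without overlap. It fell by 0.51 on the log2 scale (SE 0.153, adjusted p = 0.0269), and without Fl/Fl mouse 29 the adjusted p was 0.053. Untreated cultures, from 466 to 779 CPM, were near the Fl/+ 4-OHT cultures (0.07, SE 0.158, adjusted p = 0.793). Against untreated cultures Mmp15 was called lower in Fl/Fl cultures (-0.43, SE 0.15, adjusted p = 0.0467). That call was lost whichever Fl/Fl library was left out (adjusted p from 0.0501 to 0.108). It was also lost with library size alone (0.114), without mice 29, 36 and 39 (0.191) and under other alternatives. Mmp14, which activates pro-Mmp2 at the cell surface, was at 130, 220, 151, 192 and 140 CPM in Fl/+ and at 97.6, 114, 97.3, 133 and 116 CPM in Fl/Fl 4-OHT cultures, overlapping at mice 19 and 37. It fell by 0.57 (SE 0.148, adjusted p = 0.0138), and the call was lost when all 15 libraries shared one fit (adjusted p = 0.15). Untreated Mmp14 was widely spread, at 266, 274, 213, 133 and 65.3 CPM. Fl/Fl against untreated cultures gave -0.76 (SE 0.315, adjusted p = 0.0897), which was called without untreated mouse 36 (-0.98, adjusted p = 0.00416) and without mice 29, 36 and 39 (-0.93, adjusted p = 0.0323).

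Mmp17, a membrane-type MMP held by a lipid anchor, rose after 4-OHT instead. It was at 40.7, 31.8, 31.6, 23.8 and 25.1 CPM untreated and at 53.1, 78.2, 62.2, 58.9 and 35.9 CPM with 4-OHT (log2 0.92, SE 0.202, adjusted p = 0.0135), and the treated genotypes differed by 0.29 (SE 0.196, adjusted p = 0.277). Of the gelatinases, Mmp9 reached only 12 counts in its highest library and fell below the filter for testing. Mmp2 was at 1.09, 1.67, 0.804, 1.42 and 1.18 CPM untreated and at 5.98, 14.8, 6.79, 4.96 and 4.23 CPM in Fl/+ 4-OHT cultures. Fl/Fl cultures had 6.18, 6.29, 20.5, 4.29 and 6.25 CPM. Mmp2 rose 5.95-fold after 4-OHT (log2 2.57, SE 0.363, adjusted p = 0.00154) without overlap, and the treated genotypes differed by 0.26 (SE 0.464, adjusted p = 0.698). Mmp28, a secreted MMP of epithelia and nerve, rose by 1.03 (SE 0.253, adjusted p = 0.0213), from 0.957 to 2.27 CPM untreated to 2.66 to 4.23 CPM, and the call was lost without mouse 35 of the 4-OHT group (adjusted p = 0.0543) and without mice 29, 36 and 39 (0.0644). The summed MMP level was 162 ± 16.6, 172 ± 31.6 and 129 ± 11.1 CPM per kb in untreated, Fl/+ 4-OHT and Fl/Fl 4-OHT cultures. The highest Fl/Fl culture, at 141, was below the lowest Fl/+ 4-OHT culture, at 145 CPM per kb.

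With the mouse as a block, 2 further genes were called higher after 4-OHT, Mmp19 (0.69 and adjusted p = 0.477 unpaired, 0.0239 with the block) and Adamts19 (0.85 and adjusted p = 0.0987 unpaired, 0.0141 with the block). Both were picked after their values were seen. Mmp19 spread widely within groups, from 0.942 to 9.54 CPM untreated and from 5.34 to 38.6 CPM in Fl/Fl cultures, where mouse 37 was again the highest.

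Genes that act with the metalloproteases were counted in 5 lists. Of the regulators of ADAMs, 2 of 12 tested genes rose after Trrap deletion and none fell, against 16.8% and 15.0% of all genes, a share of rises near that of all genes. They were the Adam10-binding tetraspanins Tspan15 (60 to 124 CPM, log2 1.07, SE 0.153, adjusted p = 0.000618) and Tspan33 (0.50, SE 0.137, adjusted p = 0.0175). After 4-OHT, Tspan5, another Adam10 partner, fell by 0.62 (SE 0.161, adjusted p = 0.0267). Of the iRhoms, which carry Adam17 to the surface, Rhbdf1 rose by 0.32 (SE 0.0839, adjusted p = 0.0285). Rhbdf2 had no count in the 5 untreated libraries, so it passed the filter only through the treated cultures, and its values are a description. Its mean in Fl/+ 4-OHT cultures was 0.931 CPM, at least 44.5-fold higher than a floor of 3 counts over the untreated group.

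Among ligands and receptors shed by ADAMs, 3 of 16 rose after 4-OHT (7.34% of all genes did). After deletion 2 of 17 rose and 2 fell, smaller shares than the 16.8% and 15.0% of all genes. Hbegf, an EGF receptor ligand, rose from a mean of 60.4 to 150 CPM with 4-OHT (log2 1.32, SE 0.224, adjusted p = 0.00383) and stood at 232 CPM in Fl/Fl cultures. Notch1 rose by 0.39 after 4-OHT (SE 0.0815, adjusted p = 0.0104) and fell by 0.60 after deletion (SE 0.094, adjusted p = 0.001). The transmembrane chemokine Cx3cl1 rose by 1.12 after deletion (SE 0.237, adjusted p = 0.00496), from a mean of 147 to 317 CPM.

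Of the lecticans and link proteins, substrates of the ADAMTS proteoglycanases and their partners, 2 of 9 rose and 1 fell in each of these comparisons, where 7.34% of all genes rose and 6.45% fell after 4-OHT and 16.8% rose and 15.0% fell after deletion. Hapln2, among the rises after deletion at means of 0.208 and 0.769 CPM, was not tested after 4-OHT and passed the filter only through Fl/Fl cultures. Versican (Vcan) went from a mean of 168 CPM in Fl/+ to 66.4 CPM in Fl/Fl 4-OHT cultures (log2 -1.32, SE 0.165, adjusted p = 0.000312). Brevican (Bcan) fell by 0.82 after 4-OHT (SE 0.188, adjusted p = 0.0159), from 1790 to 1010 CPM, and tenascin C (Tnc) rose by 1.43 (SE 0.222, adjusted p = 0.00243). Of the plasminogen activators and other protease inhibitors, 2 of 11 rose and 1 fell after 4-OHT, and 1 of 12 rose and 1 fell after deletion, the latter below the same shares of all genes. The rise after deletion was that of Serpinf1, at means of 0.335 CPM in Fl/+ and 0.982 CPM in Fl/Fl 4-OHT cultures. Serpinf1 passed the filter only with Fl/Fl cultures. The broad protease inhibitor A2m rose by 1.37 after 4-OHT (SE 0.205, adjusted p = 0.00212) and the cysteine protease inhibitor Cst3 fell by 1.33 (SE 0.14, adjusted p = 0.000398).

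The ADAMTS-like proteins have the domains of ADAMTS enzymes without the protease. Of that list, which also held other extracellular metalloproteases, 4 of 13 tested genes rose after 4-OHT and none fell, against 7.34% and 6.45% of all genes. The 4 were Adamtsl1 (1.83, SE 0.327, adjusted p = 0.0049), Adamtsl3 (1.90, SE 0.26, adjusted p = 0.00136), Adamtsl4 (2.37, SE 0.362, adjusted p = 0.00233) and Adamtsl5 (0.74, SE 0.207, adjusted p = 0.0374). Adamtsl4, at an untreated mean of 0.368 CPM, passed the filter only with 4-OHT cultures, where its mean was 1.92 CPM. After deletion 2 of 12 rose, near the 16.8% of all genes, namely Bmp1 (0.35, SE 0.0939, adjusted p = 0.0153), a procollagen C-proteinase, and Papln (0.82, SE 0.188, adjusted p = 0.00743).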

How the data were processed

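RNA of 15 cultures was sequenced from stranded poly(A) libraries as single-end reads. Per the labels and the methods, the authors used bcl2fastq 1.8.4, STAR 2.5.4b on GRCm38 with Ensembl annotation and featureCounts 1.5.0 in stranded mode on uniquely mapped reads, and deposited raw counts for each gene, 25720034 to 32187097 per library. Reads shared by near-identical paralogs are lost in such counts. Genes were named and their exon lengths taken from GENCODE M21, which matched 53706 of 53801 genes. The polymorphic pseudogene Mmp1a was left out by the rule for protein-coding genes.

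Each comparison was fitted to its 10 libraries with edgeR 4.0.16 (filterByExpr at a minimum count of 10, TMM scaling, quasi-likelihood F test, Benjamini-Hochberg adjustment over all genes tested, threshold 0.05) after tests on simulated data. The SE is the absolute log2 fold change divided by the square root of F. Printed CPM were TMM-scaled over all 15 libraries. The 5 treated and 5 untreated Fl/+ cultures came from the same mice by their numbers, and over 15435 genes the deviations of same-mouse cultures correlated at 0.204 to 0.586, against -0.489 to 0.317 for different mice, so a fit with the mouse as a block was an alternative. The others were DESeq2 1.42.0, its size factors, library size alone, other filters, sex as covariate, a single fit of all libraries and each library left out. Leaving out the cultures of mice 29, 36 and 39 was added after seeing the data.

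Values are given for the TIMP genes, for up to 12 called genes with the largest changes and a mean of at least 1 CPM in each comparison, for the 10 genes highest per kilobase in untreated cultures, and for up to 3 called genes of each related list. Adamts9 after 4-OHT, Adamts20, Adamts19 and Mmp19 fall outside this rule, as do Adamts12 after 4-OHT and Adamtsl5. The genes and lists were chosen with earlier results of these data known. The floor of 3 counts covers counting error only. The labels and the methods differ on the dose and the schedule of 4-OHT, and no dose is given here.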

Additional observations from a re-analysis of the deposited data

Results flagged for a closer look

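In 7 of the 69 groups of 5 cultures examined, the highest culture stood apart from the other 4 by Dixon's criterion. Chance gives about 1 in 20 for independent, normally distributed values. CPM of genes from the same libraries need not be such values, so no excess is read from the 7. Adamts3 was at 8.06 CPM in the Fl/Fl culture of mouse 28 and at 4.33 to 4.58 CPM in the others. Adamts12 was at 16.9 CPM in the Fl/+ 4-OHT culture of mouse 24, against 4.43 to 7.3 CPM. Mmp2 was high in that same culture, at 14.8 CPM against 4.23 to 6.79 CPM, and in the Fl/Fl culture of mouse 29, at 20.5 CPM against 4.29 to 6.29 CPM. Timp1 was at 5.5 CPM in the untreated culture of mouse 19, against 2.19 to 3.14 CPM. Timp3 was at 381 CPM in the Fl/+ 4-OHT culture of mouse 26, against 228 to 268 CPM. Adamts4 was at 102 CPM in the Fl/+ 4-OHT culture of mouse 35, against 57.7 to 69.4 CPM.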

How the results depend on the processing

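Leaving out the cultures of mice 29, 36 and 39 lowered the genes called after Trrap deletion from 9 to 1, and all genes called from 4773 to 2384 (after deletion) and from 4620 to 2865 (Fl/Fl against untreated). With the replicate block, 17 metalloprotease and TIMP genes were called after 4-OHT in place of 13, and 3809 of all genes in place of 2044. Without Fl/+ 4-OHT mouse 19 or 35, 1271 and 1311 of all genes were. The number called stayed within 1.5 times under every other alternative, at 6 to 10 after deletion, 11 to 14 after 4-OHT and 13 to 18 against untreated cultures with 1 library left out. The named called genes kept their direction throughout, and 25 of 144 values after deletion, 10 of 228 after 4-OHT and 21 of 270 against untreated cultures lost the call. Of values of named genes not called, 5 gained a call after 4-OHT and 5 against untreated cultures. Among genes not called, the sign turned for values near 0. With library size alone, Timp3 (0.01) and Adam10 (0.02) turned after deletion and Adam9 (0.03) against untreated cultures. Without mice 29, 36 and 39, Adam10 (0.04) turned after deletion and Adam12 (0.05) after 4-OHT. With 1 library left out, Timp3 ranged from -0.10 to 0.11 and Adam10 from -0.12 to 0.05 after deletion, Mmp15 from -0.04 to 0.15 and Adam12 from -0.33 to 0.03 after 4-OHT, and Adam12 from -0.03 to 0.41 against untreated cultures. The cause of these changes was not tested. Of the 16 genes with at most 14 counts in a library, those with a count in the libraries compared were tested only without the filter on low counts or with DESeq2.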
